A study of Mus musculus with 8 samples.

Results

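The comparison asks what C29 added to 5-azadC in mouse mammary tumors. It sets the 2 libraries of tumors treated with both drugs (C29+5-azadC) against the 2 libraries of tumors treated with 5-azadC alone, 4 of the 8 libraries of the series. Its members were chosen by their treatment labels, not by any measured value. The tumors grew from NIC-5231, a mouse mammary tumor cell line, placed in the fat pads of immunodeficient NSG mice aged 5 to 7 weeks. Both groups carried palpable tumors before treatment and received 5-azadC at 1 mg/kg every 2 days by intraperitoneal injection. The C29+5-azadC group also received C29 at 10 mg/kg on the same schedule. Of the 5 mice of a group, DNA from the tumors of 2 was combined for 1 library, so that n = 2 libraries stands for 2 pools of 1 cell line. Vehicle (DMSO) and C29 libraries, 2 of each, are given only for reference.

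5-azadC (decitabine) is a cytidine analog that is built into DNA and traps DNA methyltransferases, chiefly DNMT1, the enzyme that copies methylation onto the new strand after replication. C29 is an inverse agonist of ERRα, an orphan nuclear receptor that controls genes of oxidative metabolism. Methylation at CpGs is low at most CpG-rich promoters and high in gene bodies, repeats and silenced genes. In reduced representation bisulfite sequencing (RRBS), DNA is cut at CCGG sites, unmethylated cytosines are converted, and the share of reads that kept the cytosine is its methylation level.

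Summed over cytosines, the 4 libraries held 51359825 to 81299065 reads on 1773373 to 1914386 cytosines, with a median of 21 to 30 reads per cytosine. Depth moved with treatment, since both C29+5-azadC libraries were shallower than both 5-azadC libraries. Spiked unmethylated DNA gave 0.216% to 0.293% methylated reads and methylated DNA 97.5% to 98.3%. Autosomal cytosines with at least 10 reads in each of the 4 libraries were kept, 784716 in all. They gave 70948 tiles of 1000 bp with at least 3 cytosines, 17684 gene promoters (1000 bp upstream to 500 bp downstream of a start site) and 11755 gene bodies. Markers of cell types were also read. The 8 tested promoters of 11 epithelial markers had a mean level of 3.25% to 4.52% in the 4 libraries, against 12.5% to 13.2% for all protein-coding promoters. The 3 tested promoters of 9 leukocyte markers had 24.9% to 35.4%, and those of 3 of 9 stromal and endothelial markers 20.96% to 26.99%. The latter include Col1a2, a called promoter described below. These are methylation levels and do not show expression, and means over 3 promoters do not establish cell identity.

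Methylation was slightly higher with C29+5-azadC than with 5-azadC alone. The mean level over all tested cytosines was 31.6% and 32.0% in the 5-azadC libraries and 32.7% in both C29+5-azadC libraries. The groups did not overlap, and their means of 31.8% ± 0.291 and 32.7% ± 0.0053 (SD, n = 2) differed by 0.919 percentage points. A two-sided exact permutation test gave p = 0.33, and no lower value is possible with this number of libraries. The difference was positive on each of the 19 autosomes, from 0.674 to 1.14 points, with no overlap between the groups on any of them. The autosomes are not replicates, because they come from the same 4 libraries. When each cytosine was thinned to 10 reads, the difference was 0.923 points. Over the 555155 cytosines with 10 reads in all 8 libraries, the levels were 34.4% in both DMSO libraries, 34.2% and 33.1% with C29, 30.0% and 30.4% with 5-azadC, and 31.1% in both libraries with C29+5-azadC. The libraries with both drugs thus lay above those with 5-azadC and below those of the other groups.

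The difference was larger in classes where methylation was high and CpGs were sparse, although the classes were not tested against each other. At cytosines whose DMSO level was 80 to 100%, the 5-azadC libraries had 79.2% and 80.3% and the C29+5-azadC libraries 81.8% and 82.0%, a difference of 2.08 points. The groups did not overlap there. At cytosines with a DMSO level of 0 to 20% the difference was 0.179 points, and it was larger in each higher band, at 1.10, 1.33 and 1.75 points for 20 to 40%, 40 to 60% and 60 to 80%. Exons differed by 1.57 points, introns by 1.67 and intergenic cytosines by 1.51, with no overlap between the groups in any of the 3. At promoter cytosines the levels were 10.96% and 11.20% with 5-azadC and 11.56% and 11.19% with C29+5-azadC, so that the groups overlapped (difference 0.296 points, two-sided exact permutation p = 0.67). In regions with under 20 CpGs per kb the difference was 1.94 points, and in regions with 50 or more it was 0.163 points with overlapping groups. Repeats differed by 1.56 points and other sequence by 0.861.

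**Figure D1:**
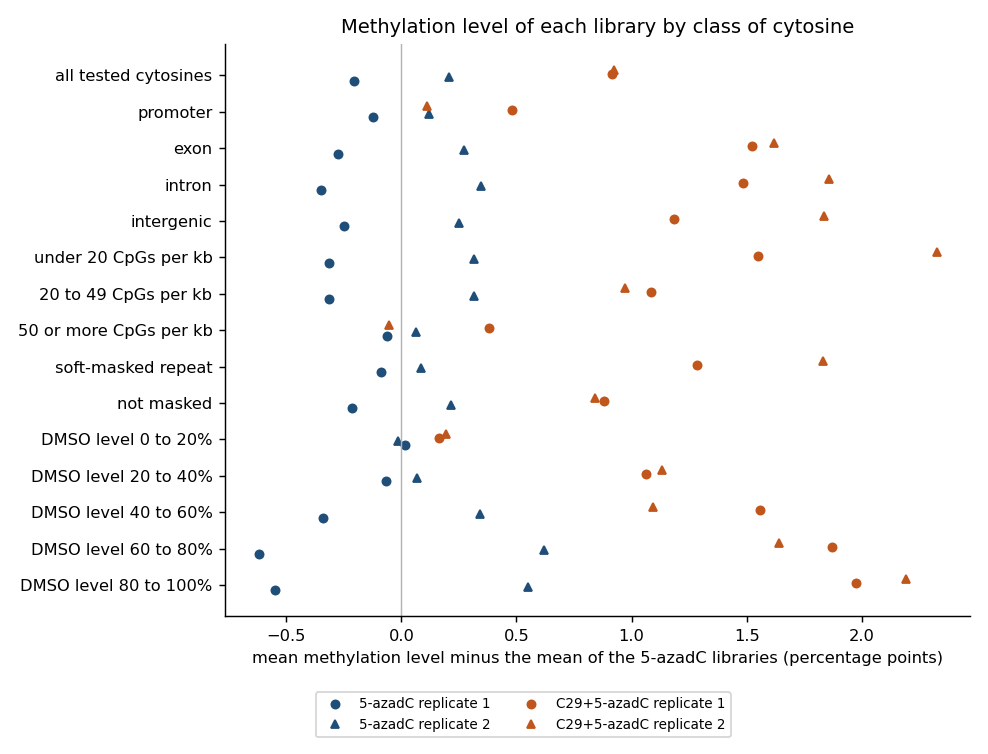
Mean methylation level of each library in each class of cytosine, drawn as percentage points above or below the mean of the 5-azadC libraries, with circles for replicate 1 and triangles for replicate 2. The C29+5-azadC libraries (orange) lie to the right of both 5-azadC libraries (blue) in every class except promoters and regions with 50 or more CpGs per kb, where the groups overlap, and the gap is 2.08 points between the group means at cytosines with a DMSO level of 80 to 100%.

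The shape of the distribution also differed. Cytosines above 80% methylation made up 20.6% and 20.3% of all tested cytosines with 5-azadC and 22.9% and 22.6% with C29+5-azadC. Cytosines of 20 to 80% made up 21.3% and 22.6% with 5-azadC and 19.09% and 19.75% with C29+5-azadC. Neither share overlapped between the groups. After thinning to 10 reads the upper class held 20.2% and 19.5% against 22.6% and 22.2%, and the middle class 22.1% and 24.1% against 19.6% and 20.4%, again without overlap. The share below 20% was 58.0% and 57.1% with 5-azadC and 58.0% and 57.6% with C29+5-azadC, with overlapping groups. Cytosines at exactly 0% or 100% made up 69.4% and 64.8% with 5-azadC and 72.9% and 72.1% with C29+5-azadC. After thinning these shares were 72.9% and 69.5% against 75.9% and 75.0%. Thinning evens out reads but does not remove PCR copies. The number of distinct molecules behind the reads, in the shallower C29+5-azadC libraries as in the others, was not known.

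Sequences are shown for 8 of the regions named below, to let the tested CpGs be seen in place. They are from the GRCm38 plus strand, with each CpG with a tested cytosine in capitals and all other bases, other CpGs included, in lower case. The Sp9, Unc5b, Sh3gl2 and Casq2 stretches had lower methylation with C29+5-azadC, the Slit3, Bloc1s5 and Angptl8 stretches had higher methylation, and the Irf4 stretch belongs to a promoter that was not called.
Sp9 intron, chr2:73280685-73280763: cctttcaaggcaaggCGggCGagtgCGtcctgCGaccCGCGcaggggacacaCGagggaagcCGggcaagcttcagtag
Intergenic, nearest to Unc5b, chr10:60889919-60889987: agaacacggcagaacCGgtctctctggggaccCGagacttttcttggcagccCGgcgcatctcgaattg
Sh3gl2 promoter window, chr4:85205889-85205943: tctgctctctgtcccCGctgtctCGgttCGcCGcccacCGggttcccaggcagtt
Casq2 promoter, chr3:102085961-102086059: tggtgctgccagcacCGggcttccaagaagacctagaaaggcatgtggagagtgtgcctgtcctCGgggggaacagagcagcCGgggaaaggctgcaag
Slit3 intron, chr11:35345774-35345929: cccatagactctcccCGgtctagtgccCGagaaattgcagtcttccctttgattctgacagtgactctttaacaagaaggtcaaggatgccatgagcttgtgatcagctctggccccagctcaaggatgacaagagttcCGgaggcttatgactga
Intergenic, nearest to Bloc1s5, chr13:38580259-38580314: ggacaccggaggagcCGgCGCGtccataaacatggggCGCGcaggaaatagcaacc
Angptl8 promoter, chr9:21835464-21835505: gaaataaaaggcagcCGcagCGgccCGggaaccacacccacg
Irf4 promoter, chr13:30748470-30748544: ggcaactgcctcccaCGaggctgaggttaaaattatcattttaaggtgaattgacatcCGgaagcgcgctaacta
Each of these stretches holds at least 1 CCGG site, the site at which RRBS fragments begin and end. The Sp9 stretch carries 8 tested CpGs in 79 bases, and the Slit3 stretch 3 in 156 bases.

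A tile, promoter or body was called when a likelihood-ratio test on the reads pooled by group gave a Benjamini-Hochberg q below 0.01 and the pooled levels differed by at least 25 percentage points. This test covers counting error only. Neighbouring cytosines of a fragment sit on the same reads, which the sums count more than once, and PCR copies were not marked, so its q values are smaller than independent molecules would give. Of 784716 cytosines, 115300 (14.7%) met the same rule. Of 70948 tiles, 4334 were called (6.11%), 2578 higher (3.63%) and 1756 lower (2.48%) with C29+5-azadC. In 3353 of them (4.73% of all tiles) the pooled level of both C29+5-azadC libraries was on one side of both 5-azadC libraries, 2055 higher (2.9%) and 1298 lower (1.83%). Among all tiles, called or not, 28.9% had groups that did not overlap. Leaving out any 1 of the 4 libraries raised the number of called tiles, to between 6448 and 7900.

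The libraries of a group differed from each other about as much as the groups did. Across tiles, the median absolute difference was 7.07 points between the 5-azadC libraries, 7.58 points between the C29+5-azadC libraries and 7.38 points between 1 library of each group. A difference of at least 25 points separated the 5-azadC libraries in 14.0% of tiles, the C29+5-azadC libraries in 15.9% and libraries of different groups in 15.1%. When the spread between libraries entered the test, edgeR's quasi-likelihood test called 0 of 70948 tiles (2324 had an unadjusted p under 0.05), and with all 8 libraries 0 of 52186 (1290 under 0.05). limma called 0 tiles (5350 under 0.05, smallest adjusted p = 0.315), and the overdispersion-corrected F test called 0 (2961 under 0.05). No single tile, promoter or body below therefore passed a test that included the spread between libraries, and "higher" and "lower" are used of the values measured in these libraries. With 2 libraries per group, the F test could hardly reach a q below 0.01 over this many tiles. Its 0 calls do not show that the tiles were alike.

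**Figure D2:**
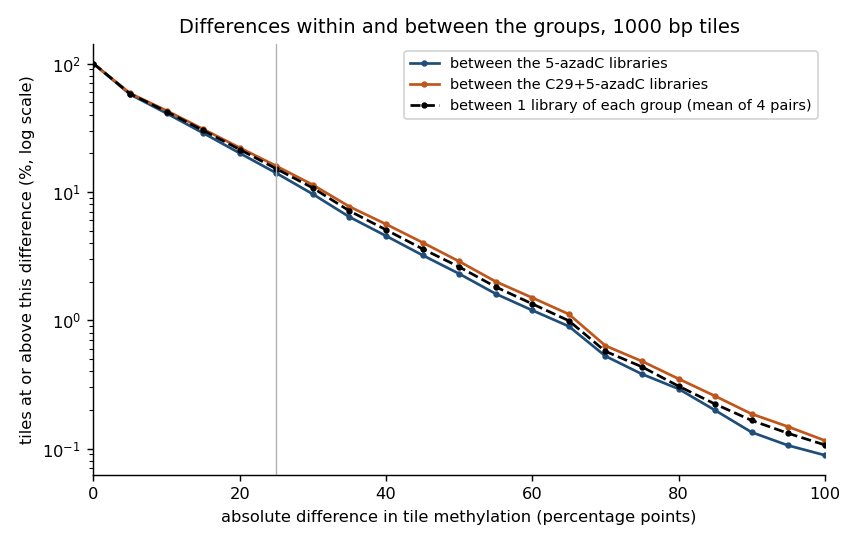
Share of the 70948 tiles (vertical axis, log scale) whose methylation differed by at least the number of percentage points on the horizontal axis, between the libraries of 1 group (solid lines) and between 1 library of each group (dashed line, mean of 4 pairs). At 25 points, marked by the vertical line, the shares are 14.0% within 5-azadC, 15.9% within C29+5-azadC and 15.1% between the groups.

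Calls were most frequent where few cytosines were read. Of tiles with 3 cytosines 12.7% were called, of those with 4 to 5 it was 7.03%, of those with 6 to 10 it was 2.59%, and of those with more than 10 it was 0.279%. Intron tiles were called in 8.54% of cases, intergenic tiles in 8.01%, exon tiles in 6.18% and promoter tiles in 2.45%. Tiles with under 20 CpGs per kb were called in 8.83% of cases and those with 50 or more in 0.680%. In each of these classes more called tiles were higher than lower with C29+5-azadC, for instance 1011 against 676 in introns and 331 against 234 at promoters.

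Tiles were named by a fixed rule: a call, at least 100 reads in each library, no overlap between the groups in pooled level or mean over cytosines, and then the 10 lower and 10 higher tiles with the widest gap between the nearest libraries of the groups. The rule left 345 lower and 598 higher tiles to choose from. Levels below are means over the cytosines of a region, and coordinates are of GRCm38.

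The widest gap belonged to an intron of Sp9, which encodes a zinc-finger transcription factor of the Sp family (chr2:73280001-73281000). Its 9 cytosines had 87.5% and 87.4% with 5-azadC and 9.74% and 0% with C29+5-azadC, on 182 to 345 reads per library (q = 5.7e-137). All 8 minus-strand cytosines, those of the Sp9 sequence above, read 0% in both C29+5-azadC libraries, on 34 and 23 reads. In the 5-azadC libraries, on 11 to 26 reads, they read 100%, except 1 cytosine at 0% in each library. The 9th cytosine, on the plus strand, had 86.9% to 87.7% in both 5-azadC libraries and C29+5-azadC replicate 1, and 0% in C29+5-azadC replicate 2. The DMSO libraries had 100% at the 9 and 8 cytosines read there.

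The tile nearest to Unc5b, a netrin receptor gene 57420 bp away (chr10:60889001-60890000), had 72.5% and 75.8% with 5-azadC and 34.0% and 32.1% with C29+5-azadC at 4 cytosines. C29 alone had 48.3% and 27.5% there, against 93.5% and 79.8% with DMSO. Both libraries with C29 alone and both with C29+5-azadC were thus below all libraries without C29. An exon of St8sia4, which encodes a polysialyltransferase (chr1:95666001-95667000), had 82.2% and 73.8% with 5-azadC, 26.6% and 28.7% with C29+5-azadC, 71.4% and 62.3% with DMSO and 48.8% and 51.5% with C29 at 6 cytosines. It showed the same order, with the C29 groups the lower ones. For the groups with 5-azadC the naming rule required this order. In the tiles nearest to Tanc1, Tab2 and Ccdc121 the C29 and DMSO libraries overlapped. Of all tiles lower with C29+5-azadC without overlap, 16.4% also had both C29 libraries below both DMSO libraries, against 15.1% of all tiles.

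The promoter of Med27, a Mediator subunit gene (chr2:29504001-29505000), had 85.9% and 84.8% with 5-azadC against 44.2% and 30.7% with C29+5-azadC at 4 cytosines. In an intron of Cacna1g, which encodes a T-type calcium channel subunit (chr11:94419001-94420000), the 5 cytosines had 79.6% and 60.0% against 20% and 20.6%. The tile nearest to Tab2, an adaptor of the kinase TAK1 (chr10:7888001-7889000), had 100% and 61.1% against 12.8% and 20%, so that its 5-azadC libraries were far apart from each other. The remaining lower tiles lay in Gm10714 and nearest to Tanc1, Gm572 and Ccdc121, with 72.2% to 93.8% in the 5-azadC libraries and 12.2% to 44.5% in those with C29+5-azadC.

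Among the higher tiles the widest gap was in an intron of Slit3, which encodes a secreted ligand of Robo receptors (chr11:35345001-35346000). Its 3 cytosines had 12.95% and 15.73% with 5-azadC and 72.1% and 80.9% with C29+5-azadC, on 109 to 163 reads (q = 3.4e-37). At the first of them both 5-azadC libraries read 0% and both C29+5-azadC libraries 100%. The DMSO libraries, at 69.1% and 26.8%, lay apart from each other.

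In the 5 higher tiles that were read in full in both DMSO libraries, all 4 libraries with DMSO or C29+5-azadC lay above both 5-azadC libraries. For C29+5-azadC the naming rule required this order. DMSO was above 5-azadC over all cytosines too (34.4% against 30.0% and 30.4%), and the share of all tiles with this order was not computed. These 5 tiles include the Slit3 tile and an intron of Nav2, a neuron navigator gene. The Nav2 tile had 58.3% and 50% in the DMSO libraries, 38.3% and 25.9% with 5-azadC and 79.5% and 80% with C29+5-azadC. A tile over a Usp35 start site, a ubiquitin-specific protease gene (chr7:97325001-97326000), had 50.5% and 45.5% with 5-azadC, 99.6% and 100% with C29+5-azadC and 96.2% and 100% with DMSO at 11 cytosines. The tile nearest to Bloc1s5, a gene of lysosome-related organelle biogenesis (chr13:38580001-38581000), had 38.2% and 39.4% with 5-azadC, 90.2% and 87.3% with C29+5-azadC and 81.8% and 80% with DMSO. An intron of 1110059E24Rik (chr19:21609001-21610000) had 38.6% and 33.3%, then 84.8% and 100%, and 88.7% and 100% with DMSO. The call at Usp35 was lost when cytosines with 5 reads were admitted (a pooled difference of 15.6 points) or both strands of a CpG were summed (15.6 points).

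The other higher tiles lay over a start site of Kcnab1, a potassium channel subunit gene, of Plxnd1, a semaphorin receptor gene, and of Slc39a13, a zinc transporter gene, where the tile also overlaps the proteasome gene Psmc3, and in introns of Slc16a7, a monocarboxylate transporter gene, and Syne1, a nuclear envelope gene. With Nav2, they had 8.19% to 51.6% with 5-azadC and 77.5% to 100% with C29+5-azadC. For Plxnd1 the pooled difference was 27.4 points, and it fell short of 25 points without 5-azadC replicate 1 (16.7 points) or without C29+5-azadC replicate 1 (22.6 points).

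**Figure D3:**
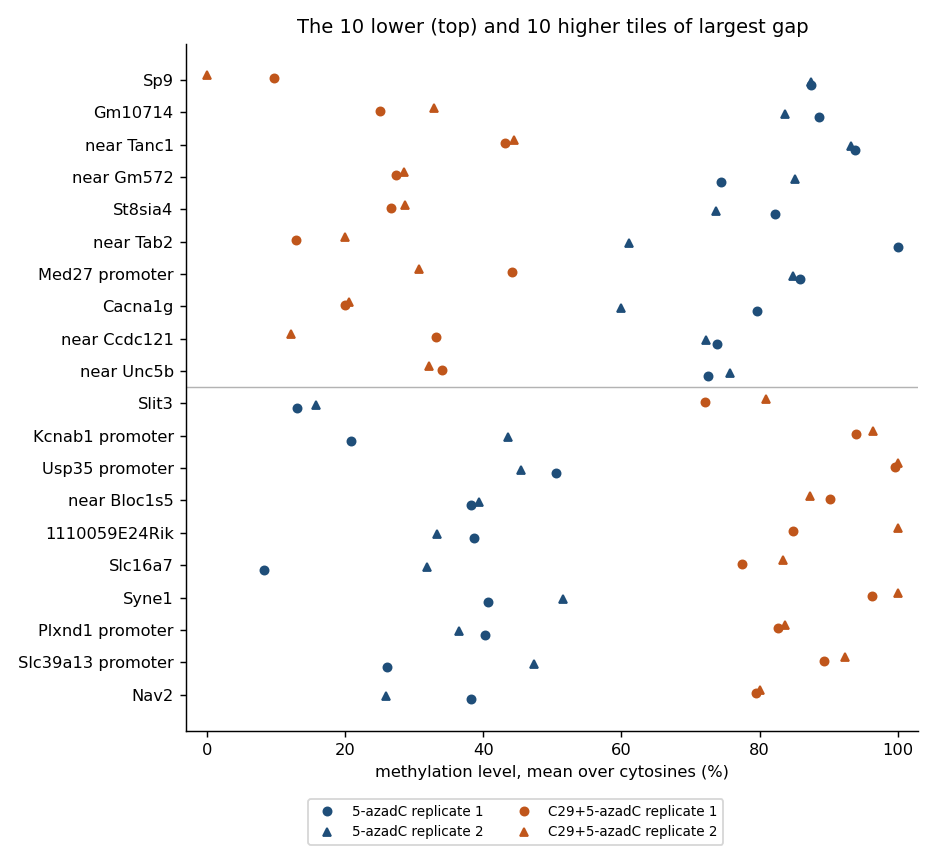
Methylation level, as the mean over the cytosines of a tile, in the 5-azadC libraries (blue) and the C29+5-azadC libraries (orange) for the 10 lower tiles (above the line) and the 10 higher tiles (below it), with circles for replicate 1 and triangles for replicate 2. The groups were chosen not to overlap, and the gap between the nearest libraries runs from 77.7 points at Sp9 to 38.5 points near Unc5b.

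**Figure D4:**
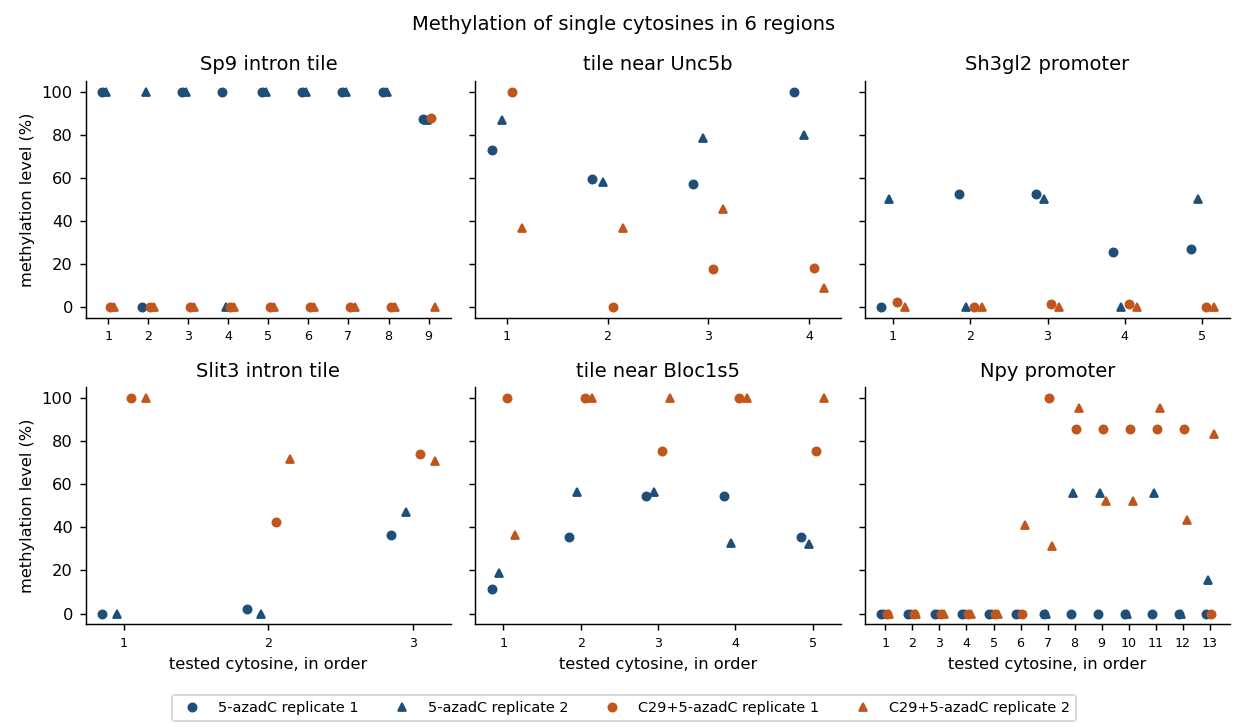
Methylation level of each tested cytosine in 6 of the named regions, in order along the chromosome (horizontal axis), for the 4 libraries. In the Sp9 tile cytosines 1 to 8 read 0% in both C29+5-azadC libraries while 9 separates only 1 library, and in the Npy promoter the first 5 cytosines read 0% in all 4 libraries and the groups do not overlap at cytosines 7, 8 and 10 to 12.

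Promoters were called less often than tiles. Of 17684 promoters 258 were called (1.46%), 156 higher (0.882%) and 102 lower (0.577%), and of the 13244 promoters of protein-coding genes 119 (0.899%), 70 higher (0.529%) and 49 lower (0.37%). In 93 of these (0.702%) the pooled levels of the groups did not overlap. Gene bodies were called in 431 of 11755 cases (3.67%), 250 higher (2.13%) and 181 lower (1.54%), and those of protein-coding genes in 3.48%. The same naming rule was applied to protein-coding genes, with 11 lower and 26 higher promoters eligible, of which 10 lower and 9 higher are given. A promoter window can lie at a start site inside the gene. For 1700008O03Rik, Sh3gl2, Stra6, Hesx1, Cyp27a1 and Col1a2 all tested cytosines lay at such inner start sites, and none at the outer start of the gene.

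The lower promoter with the widest gap was that of 1700008O03Rik, which overlaps that of the synaptotagmin gene Syt3, and whose 7 cytosines had 52.8% and 43.5% with 5-azadC and 0% and 3.76% with C29+5-azadC. At the promoter window of Sh3gl2, which encodes the membrane-bending protein endophilin A1 (gene at chr4:85205126-85639195), 5 cytosines 370 to 393 bp downstream of a start site had 31.6% and 30.0% against 1.03% and 0%. With DMSO its libraries had 68.9% and 22.4% and so were far apart from each other. The Sh3gl2 difference was below 25 points when 5 reads sufficed (-17.3 points) or strands were summed (-17.8 points).

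Casq2 (chr3:102086415-102146514), which encodes the calcium store protein calsequestrin, had 75.9% and 72.2% with 5-azadC and 46.5% and 32.9% with C29+5-azadC at 3 cytosines upstream of its start site. Stra6, the receptor gene for retinol-binding protein, had 75.3% and 59.8% against 38.2% and 33.6%. Ltb, the gene of lymphotoxin beta, had 84.3% and 67.7% against 44.9% and 48.8%. Hes2 and Hesx1, which encode a helix-loop-helix and a homeodomain transcription factor, had 61.9% and 54.8% against 30.4% and 19.7%, and 63.5% and 80.4% against 42.7% and 36.5%. Plscr4, a phospholipid scramblase gene, had 62.1% and 60.9% against 24.9% and 40.9%. Cyp27a1, which encodes sterol 27-hydroxylase, had 75.4% and 70.1% against 12.5% and 58.1%, and its pooled difference was -16.0 points without C29+5-azadC replicate 1. AI464131 had 52.6% and 58.2% against 42.9% and 16.4%, with -11.7 points without C29+5-azadC replicate 2. Without 1 library the differences at Hes2 (-24.4 and -24.3 points), Stra6 (-23.2) and Hesx1 (-21.1) were also short of 25 points. With strands summed, Plscr4 (-24.4), Hes2 (-23.8) and Stra6 (-22.6) fell short as well, as did Plscr4 with a minimum of 5 reads (-22.9).

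Angptl8 (chr9:21835510-21837347), which encodes a regulator of lipoprotein lipase, was among the higher promoters. The 3 cytosines of its sequence above, just upstream of a start site and also within the Dock6 window, had 62.8% and 33.6% with 5-azadC and 94.5% and 100% with C29+5-azadC. DMSO libraries had 79.8% and 100% there, and C29 libraries 92.6% and 94.0%. Fam107a had 37.2% and 53.8% with 5-azadC against 88.9% and 88.6%, and Tnr, which encodes the matrix protein tenascin-R, 17.0% and 28.1% against 61.6% and 60.2%.

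At Npy, the neuropeptide Y gene (chr6:49822710-49829507), 13 cytosines had 0% and 14.1% with 5-azadC and 40.7% and 38.1% with C29+5-azadC. The first 5 were at 0% in all 4 libraries, and the difference lay in the cytosines near and downstream of the start site. Col1a2 (chr6:4504814-4541544), which encodes a chain of type I collagen, had 31.6% and 24.3% against 54.7% and 57.0% at 4 cytosines, and DMSO libraries had 27.1% and 24.0%. Hoga1, a hydroxyproline catabolism gene, had 40% and 74.0% against 96.1% and 97.3%. Ccr4, a chemokine receptor gene, had 39.9% and 61.4% against 80.2% and 88.9%. AA986860 had 3.756% and 7.598% against 26.5% and 54.5%. Usp35, over 27 cytosines, had 28.5% and 29.6% against 51.7% and 51.9%. Its cytosines at the outer start of the gene (chr7:97332223-97332360) were at 0% in all 4 libraries, so the difference lay at start sites inside the gene. Leaving out 1 library took the difference below 25 points at Col1a2 (22.6 points), Hoga1 (21.5), Ccr4 (20.5 and 22.1), AA986860 (22.6) and Usp35 (24.8 and 22.9). The Usp35 promoter had a difference of 12.2 points with 5 reads admitted, 9.09 points with strands summed and 0 points at a minimum of 20 reads.

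**Figure D5:**
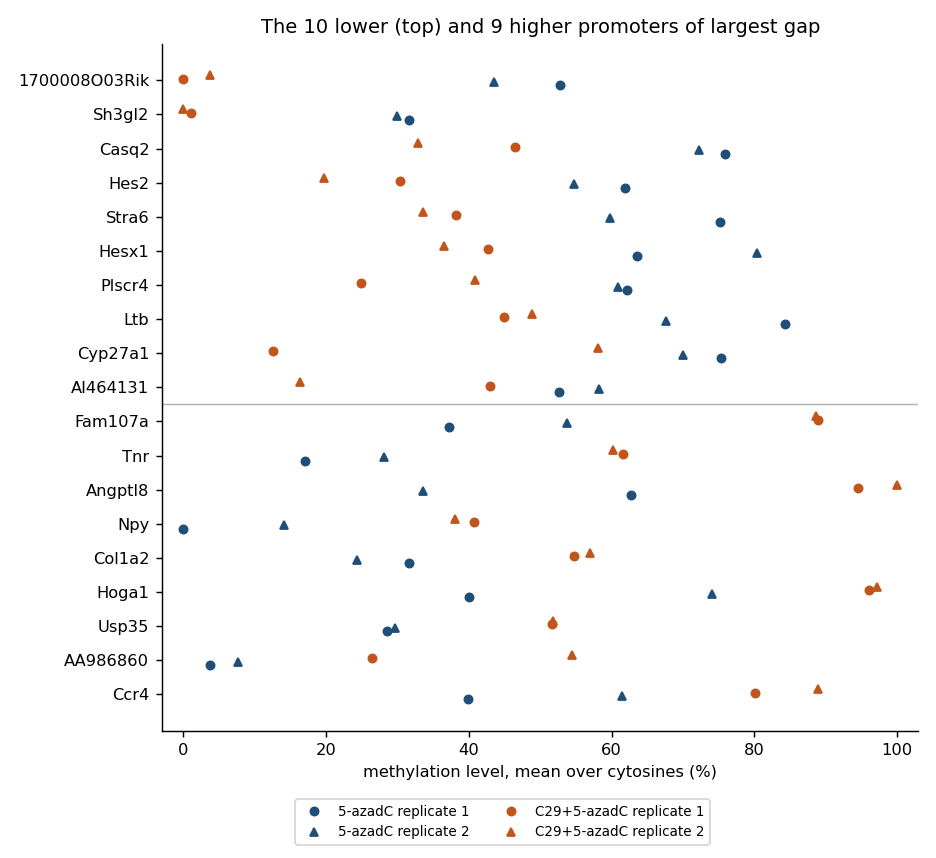
Methylation level, as the mean over the cytosines of a promoter window, in the 5-azadC libraries (blue) and the C29+5-azadC libraries (orange) for the 10 lower protein-coding promoters (above the line) and 9 higher ones (below it), with circles for replicate 1 and triangles for replicate 2. The gap between the nearest libraries runs from 39.7 points at 1700008O03Rik to 9.72 points at AI464131 among the lower promoters and from 34.9 points at Fam107a to 18.8 points at Ccr4 among the higher ones.

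Promoters of the pathways the drugs act on were not called, while 3 gene bodies were. Of all protein-coding genes, 0.899% of promoters and 3.48% of bodies were called, so lists this short would hold few calls. The counts are therefore no result about these pathways. The promoter of Esrra, which encodes ERRα, was at 0% in all 4 libraries over 15 cytosines, as was that of Etv1, an ETS transcription factor gene, over 23. The Dnmt1 promoter had 18.7% in both 5-azadC libraries and 13.8% and 19.7% with C29+5-azadC over 48 cytosines, and the groups overlapped. Dnmt3a had 11.03% and 12.36% against 13.50% and 12.06% over 143 cytosines. The promoters of Tet2 and Tet3, which encode 5-methylcytosine dioxygenases, were at or below 1.50% in each of the 4 libraries. Tdg, the thymine DNA glycosylase gene, had 25% and 24.7% against 16.5% and 25%. Among the 19 methylation and demethylation enzymes, 0 of 15 tested promoters and 1 of 11 bodies were called. That body was Mbd1, a methyl-CpG binding protein gene, with 86.3% and 33.3% against 100% in both C29+5-azadC libraries at 3 cytosines, and with a pooled difference of 17.0 points without 5-azadC replicate 2.

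In the methionine and folate cycle, 0 of 23 promoters were called. Ahcy and Mat2a, the genes of the enzymes that clear S-adenosylhomocysteine and make S-adenosylmethionine, were at or below 1.44% in each of the 4 libraries compared. Mat1a, the liver form of the latter enzyme, had 27.0% and 28.5% against 11.7% and 21.3% at 4 cytosines, a pooled difference of -16.4 points without overlap. The 1 called body of 9 was Bhmt2, a homocysteine methyltransferase gene, with 48.3% and 0% against 100% and 57.5% (22.5 points without C29+5-azadC replicate 1). ERR receptors and coregulators had 0 of 11 promoters and 0 of 8 bodies called. Oxidative metabolism genes had 0 of 53 promoters called, a median difference of 0 points, and 1 of 15 bodies called, Mrpl2, with overlapping groups.

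The 9 transcription factors that the study selected had 0 of 9 promoters and 0 of 6 bodies called. The study selected them on these samples, for promoter changes against vehicle found only with both drugs, and by methylation and prognosis in patients. Their values are thus no independent evidence of a direction. The present comparison is with 5-azadC and not with vehicle, so it does not repeat that selection. At Irf4, an interferon regulatory factor, the promoter had 33.3% and 24.3% with 5-azadC and 45.6% and 29.4% with C29+5-azadC, on 3 cytosines and 72 to 258 reads. DMSO libraries had 58.1% and 59.1% there, and C29 libraries 47.8% and 60.2%. The 5-azadC and C29+5-azadC groups overlapped. The pooled difference of 20.5 points (q = 2.3e-06) was under the 25 points of a call, and it rested on C29+5-azadC replicate 1, being 3.96 points without that library and 32.5 points without C29+5-azadC replicate 2. It was 29.6 points when strands were summed and 17.4 points with a minimum of 5 reads. Of the Irf4 sequence above, the first tested CpG had 0% and 12% against 36.8% and 0%, and the second 100% and 61% against 100% and 88.1%, while the third cytosine of the promoter was at 0% in all 4 libraries. The Irf4 body, over 24 cytosines, had 31.3% and 28.1% against 36.2% and 21.4%.

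The other 8 included Foxe1, a forkhead factor, whose promoter had 64.3% and 56.0% with 5-azadC and 48.3% and 43.3% with C29+5-azadC over 16 cytosines, without overlap and with a pooled difference of -10.7 points. The Hoxa3 promoter had 48.4% and 56.9% against 90.4% and 61.6%. Its pooled levels overlapped, with a difference of 20.8 points, and it depended on single libraries, at 33.8 points without 5-azadC replicate 2, 35.6 points without C29+5-azadC replicate 2 and -5.96 points, in the opposite direction, without C29+5-azadC replicate 1. A minimum of 5 reads gave -8.21 points. Gfi1, a zinc-finger repressor gene, had 14.7% and 16.03% against 25.5% and 20.5%, but its pooled levels overlapped (difference 2.33 points, q = 0.34), and the difference was -8.31 points with a minimum of 5 reads and -1.31 points without 5-azadC replicate 1. Vdr, the vitamin D receptor gene, Tead2, which encodes a partner of YAP, and Nr2c2, an orphan nuclear receptor gene, had levels of 3.36% to 14.5% with overlapping groups, and the POU factor gene Pou3f3 had 23.7% to 38.8%, also with overlap. At Zbtb20, a zinc-finger factor gene, the promoter was at 0.547% to 2.99%, and the body had 42.6% and 54.3% against 66.6% and 56.1% without overlap.

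Gene lists were read against all genes tested, of which 1.46% of promoters and 3.67% of bodies were called, with median differences of 0 and 1.05 points in the mean over cytosines. Hox genes had 2 of 37 promoters called, Hoxa2 and Hoxb2. Hoxb2 had 0% and 3.44% against 52.3% and 43.1% at 3 cytosines, on 32 to 140 reads, while Hoxa2 had 30.5% and 89.8% against 78.8% and 93.6% with overlapping groups. Of 34 Hox bodies, 1 was called, Hoxc8, with overlapping groups. Other developmental transcription factors had 1 of 107 promoters called, Olig3, with 0% in both 5-azadC libraries against 35.8% and 23.5% (23.5 points, and no call, without C29+5-azadC replicate 1), and 0 of 93 bodies. Both lists had medians near 0, at -0.41 points for Hox promoters and 0.03 points for the other developmental promoters.

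Imprinted genes had 0 of 33 promoters and 2 of 21 bodies called. The body of Kcnq1ot1, the antisense transcript of the Kcnq1 imprinted domain, had 77.9% and 56.2% with 5-azadC and 44.1% and 38.0% with C29+5-azadC over 12 cytosines, and DMSO libraries had 39.0% and 53.0% at 11 and 10 of them. Its pooled difference of -25.9 points was -13.7 without 5-azadC replicate 1 and -19.2 without C29+5-azadC replicate 2. Blcap had 85.5% and 98.2% against 37.3% and 0% at 3 cytosines. Germline and pluripotency genes were the most methylated list, with a mean promoter level of 74.9% and 76.9% with 5-azadC and 79.0% and 76.0% with C29+5-azadC, and 0 of 37 promoters were called. Their called bodies were Syce2, a synaptonemal complex gene, with 64.5% and 67.4% against 100% in both, Tuba3a, with 33.3% and 66.7% against 100% and 76.2% (20.8 points without 5-azadC replicate 1 and 22.4 points without C29+5-azadC replicate 1, each short of a call), and Fkbp6, with overlapping groups.

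Interferon response and antigen presentation genes had 0 of 29 promoters and 0 of 14 bodies called, with mean promoter levels of 11.2% and 12.7% against 15.7% and 13.4%. Tumor suppressors often methylated in breast cancer had 0 of 32 promoters and 0 of 24 bodies called. ErbB receptors and ligands had 0 of 16 and 0 of 13, and 81.3% of these promoters had a difference above 0, against 47.8% of all promoters, with a median of 0.77 points. For their bodies it was 53.8%, against 56.5% of all bodies. Other short lists departed the other way, with 31.25% of tumor suppressor, 31.6% of mammary lineage and 12.5% of epithelial marker promoters above 0. None of these shares was tested. Secreted Wnt antagonists and feedback genes had 0 of 19 promoters and 1 of 16 bodies called, Dkk2, whose pooled levels overlapped. Mammary lineage and hormone receptor genes had 0 of 19 promoters and 1 of 21 bodies called. That body was Krt19, a luminal keratin gene that is also in the list of epithelial markers (1 of 6 bodies called there), with 78.6% and 74.6% against 38.6% and 28.1% at 4 cytosines. Epithelial and mesenchymal identity genes had 1 of 25 promoters called and 0 of 14 bodies. Stromal and endothelial markers had 1 of 3 promoters and 1 of 6 bodies called. The promoter in both lists was Col1a2, and the body was Pecam1, an endothelial adhesion gene, with 29.3% and 36.9% against 46.0% and 42.5%. Its pooled difference of 28.7 points was 21.7 and 22.5 points without 1 library, 16.0 points at a minimum of 20 reads and 11.1 points as the mean over cytosines, each short of a call. Epithelial markers had 0 of 8 promoters called, and leukocyte markers 0 of 3 promoters and 0 of 3 bodies. Whether the share of host cells differed between the tumors was not tested.

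The effect of C29 was set beside its effect without 5-azadC on the 52186 tiles read in all 8 libraries, where the comparisons share no library. The mean difference was 1.21 points with 5-azadC and -0.715 points without it (C29 minus DMSO). Across tiles, which are not independent, the differences had a Pearson correlation of -0.00664. Of the 6216 tiles in which both C29+5-azadC libraries were below both 5-azadC libraries, 16.4% also had both C29 libraries below both DMSO libraries, against 15.1% of all tiles. Of these, 14.5% had both C29 libraries above both DMSO libraries, against 12.8% of all tiles. Of the 8503 tiles that were higher with C29+5-azadC in this way, 13.7% were also higher with C29 alone (12.8% of all tiles) and 17.6% were lower (15.1% of all tiles). Tiles without overlap in either pair thus numbered 2185 in the same direction (4.19% of all tiles) and 2398 in opposite directions (4.6%). The difference between the effects was not tested.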

How the data were processed

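RRBS libraries (2 per group, 4 groups) had been aligned by the authors to mm10/GRCm38, and the submitters' processing notes name FastQC 0.11.8, Trim Galore 0.4.1, Bismark 0.20.0 and methylKit 1.7.0. For each CpG cytosine and strand, the authors deposited a methylated fraction and a read count, without normalization. Their product gave whole methylated reads (within 0.01) for over 99.9% of cytosines. All 3544233 autosomal cytosines lay at CpGs of GRCm38. Genes are from GENCODE M21. The sex chromosomes were left out.

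Members were set by treatment label alone, but they and the gene lists were chosen with earlier results of these data known. The likelihood-ratio test was computed as in methylKit without overdispersion, and region levels are means over cytosines unless called pooled. A body runs from 500 bp beyond the last start site to the gene end. Alternatives were the coverage minimum, a limit on depth, summed strands, the tile length, the number of cytosines, the smallest difference, edgeR 4.0.16, the F test, a replicate block and leaving out each library. limma 3.58.1 and thinned reads were added after seeing the data. Scripts ran in Python 3.11.15 (numpy 2.4.6, scipy 1.17.1, pandas 2.3.3) and R 4.3.3, figures in matplotlib 3.10.9, and the tests were tested on simulated data.

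Named tiles and promoters were the 10 lower and 10 higher with the widest gap, as given in the text, and 1 higher promoter is not reported here. Also named were the 9 transcription factors of the study, 10 genes around ERRα and DNA methylation, and list members that were called without overlap, with those called with overlap named in addition.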

Additional observations from a re-analysis of the deposited data

Results flagged for a closer look

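In 5 of the named regions C29 went with opposite differences in the presence and absence of 5-azadC, with no overlap in either pair of groups. Of the 57 named regions read in all 8 libraries, 5 showed this and 5 others had the same direction in both pairs (tiles of St8sia4, near Unc5b and of Slc39a13, and the promoters of Sh3gl2 and Hes2), and among all tiles 4.6% had opposite and 4.19% the same directions. Casq2, Col1a2 and Tuba3a, like the tiles and promoters of the naming rule, had been named because their groups with 5-azadC did not overlap. The shares over all tiles are therefore too low a base for them. Of tiles without overlap with 5-azadC, C29 alone went the opposite way without overlap in 14.5% of the lower and 17.6% of the higher ones. It went the same way in 16.4% and 13.7%. These differences between the effects were not tested, and each is over the cytosines read in all 8 libraries. The Casq2 promoter (3 cytosines) had 53.8% and 44.8% with DMSO, 61.1% and 55.3% with C29, 75.9% and 72.2% with 5-azadC and 46.5% and 32.9% with C29+5-azadC, so that the C29 effects with and without 5-azadC differed by -43.2 points. The Col1a2 promoter (4 cytosines) had 27.1% and 24.0%, 19.6% and 11.7%, 31.6% and 24.3%, and 54.7% and 57.0% in the same order, a difference between effects of 37.8 points. In the Tuba3a body (3 cytosines) the levels were 100% and 97.4%, 84.4% and 73.7%, 33.3% and 66.7%, and 100% and 76.2%, a difference of 57.8 points. The Zbtb20 body (17 cytosines) had 65.6% and 65.8%, 60.7% and 61.8%, 41.4% and 51.7%, and 65.7% and 59.2%, a difference of 20.4 points. For the Mat1a promoter (4 cytosines) the levels were 26.8% and 11.5%, 35.0% and 26.9%, 27.0% and 28.5%, and 11.7% and 21.3%, a difference of -23.0 points.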

How the results depend on the processing

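The mean difference of 0.919 points stayed positive under every alternative run, from 0.296 points (promoter cytosines only, with overlapping groups) to 1.59 points (outside promoters), and from 0.713 to 1.12 points when 1 library was left out. Leaving out 1 library could not change its sign, because the groups did not overlap. Thinning keeps the expected mean, so it could hardly change it either. A minimum of 20 reads gave 46349 called cytosines in place of 115300, 1598 called tiles, 1339 of them without overlap between the groups, 154 promoters and 213 bodies. At least 5 cytosines per region left 853 tiles, 723 without overlap, 108 promoters and 147 bodies, of which 73 were higher and 74 lower, so that the excess of higher bodies (250 against 181) was gone. With promoters limited to the 1000 bp upstream, 123 of 235 called promoters were higher and 112 lower, against 156 and 102. A minimum difference of 10 points gave 202991 cytosines, 21010 tiles, 12595 without overlap, 1854 promoters and 3255 bodies. The F test called 0 cytosines, tiles, promoters and bodies (21204, 2961, 727 and 495 had an unadjusted p under 0.05), and edgeR and limma called 0 tiles. With 2 libraries per group, the F test could hardly reach a q below 0.01, so its counts do not show that regions were alike. Leaving out 1 library gave 6448 to 7900 tiles, 6007 to 7430 without overlap, 404 to 542 promoters and 705 to 860 bodies (136071 to 149759 cytosines). These counts stayed within 1.5 times the main ones with a minimum of 5 reads, without the deepest 0.1% of cytosines, with strands summed, with the mean over cytosines as the level, and with tiles of 500 bp. With the replicate number as a block there were 4318 called tiles, 110155 cytosines, 258 promoters and 431 bodies. The labels do not say whether these numbers pair the libraries. The replicate deviations of the groups had a correlation of -0.00158 across tiles, which does not settle it. None of the named regions that were called changed direction. Their groups had been chosen not to overlap, so leaving out 1 library could not change it. The F test and the replicate block used the same pooled difference. Named regions that were not called did change direction, such as the Foxe1 body, from 0.927 to -6.06 points at a minimum of 20 reads. A minimum of 20 reads could be applied to 8 of the 20 named tiles, all still called, while the F test and edgeR with 4 libraries kept 0 of 20. Depth, with a median of 21 to 30 reads per cytosine, limits how many cytosines a region holds, and tiles of 3 cytosines had the widest spread between libraries of a group.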
